A study of Rattus norvegicus with 8 samples.

Results

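Mast cell proteases and markers were followed in rat liver after repeated furan dosing. The genes were 10 of the 26115 gene names on the array, chosen by symbol. They were the chymases Mcpt1, Mcpt2 and Mcpt4, the chymase-related proteases Mcpt9 and Mcpt10, the carboxypeptidase Cpa3 and the tryptase Tpsab1. The others were the growth factor receptor Kit, the IgE receptor beta chain Ms4a2 and the histamine-forming enzyme Hdc. The furan group was 4 male Fisher 344 rats, aged 18 weeks, dosed with furan by gavage for 90 days, at 8 mg/kg body weight per dosing day and 5 dosing days a week, and killed 24 hours after the last dose. The control group was 4 male Fisher 344 rats of the same strain and age, and the sources used here do not say whether a vehicle was given. Total RNA of whole liver was labelled with Cy3 and hybridised to Agilent rat arrays read in 1 colour, with 1 array for each animal. Each of the 10 genes had 1 probe of 60 bases, printed as 2 spots on every array.

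Mast cells are tissue-resident cells of the blood lineage that store histamine, heparin and proteases in granules and release them when IgE bound to its receptor is crosslinked. Rodents carry an expanded family of granule serine proteases, in which chymases cleave after aromatic residues, tryptases after basic ones, and carboxypeptidase A3 trims the products from their C-terminal ends. Mast cells depend on the receptor Kit and its ligand, and in liver they are few and lie mainly in portal tracts and around bile ducts. Mcpt8, Mcpt9 and Mcpt10 belong to a branch of the family of their own, which holds further Mcpt8-like genes in the rat, and mouse Mcpt8 is a marker of basophils. In RNA of whole liver, fewer cells of a type and less RNA per cell cannot be told apart.

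The 5 Mcpt genes lay in 1 cluster on chromosome 15 (rn4 build of the array annotation), between Mcpt4 at chr15:34169416-34169475 and Mcpt2 at chr15:34557829-34557888, with the other 3 probes at chr15:34272209-34272268 for Mcpt1, chr15:34486300-34486359 for Mcpt10 and chr15:34544652-34544711 for Mcpt9. All 5 were on the plus strand. The other 5 genes lay elsewhere, with probes at chr2:105385518-105385577 for Cpa3, chr10:14591591-14591650 for Tpsab1, chr14:34906043-34906102 for Kit, chr1:214018326-214018385 for Ms4a2 and chr3:114119325-114119384 for Hdc. The probe sequences of the 5 clustered genes are shown because neighbouring genes of the family are similar and a probe can read more than 1 of them. They were copied from the scanner files, and the capitals mark the longest run of bases that a probe shared with any other probe of the cluster.
Mcpt9: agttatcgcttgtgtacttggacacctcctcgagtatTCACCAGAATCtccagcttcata
Mcpt10: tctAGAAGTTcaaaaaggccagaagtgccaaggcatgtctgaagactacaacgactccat
Mcpt2: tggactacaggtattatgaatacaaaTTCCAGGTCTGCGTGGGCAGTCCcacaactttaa
Mcpt1: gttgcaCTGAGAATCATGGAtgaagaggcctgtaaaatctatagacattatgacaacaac
Mcpt4: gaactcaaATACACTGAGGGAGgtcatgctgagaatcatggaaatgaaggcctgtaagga
The run was 11 bases for Mcpt9, shared with Ctsg, and 7 bases for Mcpt10, shared with Mcpt1l4. It was 23 bases for Mcpt2, shared with the chymase Mcpt1l1, 14 bases for Mcpt1, shared with Mcpt4, and 14 bases for Mcpt4, shared with Mcpt4l1. The Mcpt10 probe and the Mcpt8l3 probe also listed 1 Ensembl transcript in common in the array annotation, although their longest shared run was 5 bases. Symbols here are those of the array. The transcript behind the array's Mcpt1 is now called Vch in RefSeq, and the transcript behind its Mcpt2 is now called Mcpt1. Whether the array's Mcpt1 probe reads a gene of mast cells was not tested.

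Every level below is a log2 processed signal with the 75th percentile of its array set at 0. That percentile lay between 1256 and 1596 intensity units on the furan arrays and between 827 and 1057 on the control arrays, so this scaling lowers a furan level relative to the unscaled signal. A gene was tested where its probe was well above background, by the scanner software's call, on all 4 arrays of at least 1 group. It was called at an adjusted p below 0.05 by limma's moderated test over 17593 features. Of these features 3030 were called higher after furan and 2974 lower. Arrays 1 and 2 of both groups shared a slide, and arrays 3 and 4 of both groups shared another. Arrays furan 1 and control 2 were the highest of their groups in bile duct markers, and furan 2 was also high. The median level of 8 bile duct markers was 0.25 on furan 1, -1.67 on furan 2, and -3.94 and -4.02 on furan 3 and 4. It was -1.97 on control 2 and from -4.08 to -3.75 on the other 3 control arrays.

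Of the 10 genes, 4 passed the filter on dim signal, and 2 of these 4, Mcpt9 and Mcpt10, fell after furan, while 0 were called higher. One tested gene, Hdc, was higher at an unadjusted p below 0.05. Over all features 34.1% were called, 16.9% as lower and 17.2% as higher. Mcpt9, Mcpt10 and Hdc were well above background on all 8 arrays and Kit on 7 of them, missing on control 1, so Kit passed through the furan group. The median log2 change over the 4 tested genes was -0.78, against -0.03 over all features. The other 6 genes, Mcpt1, Mcpt2, Mcpt4, Cpa3, Tpsab1 and Ms4a2, were too dim for the test in both groups.

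**Figure D1:**
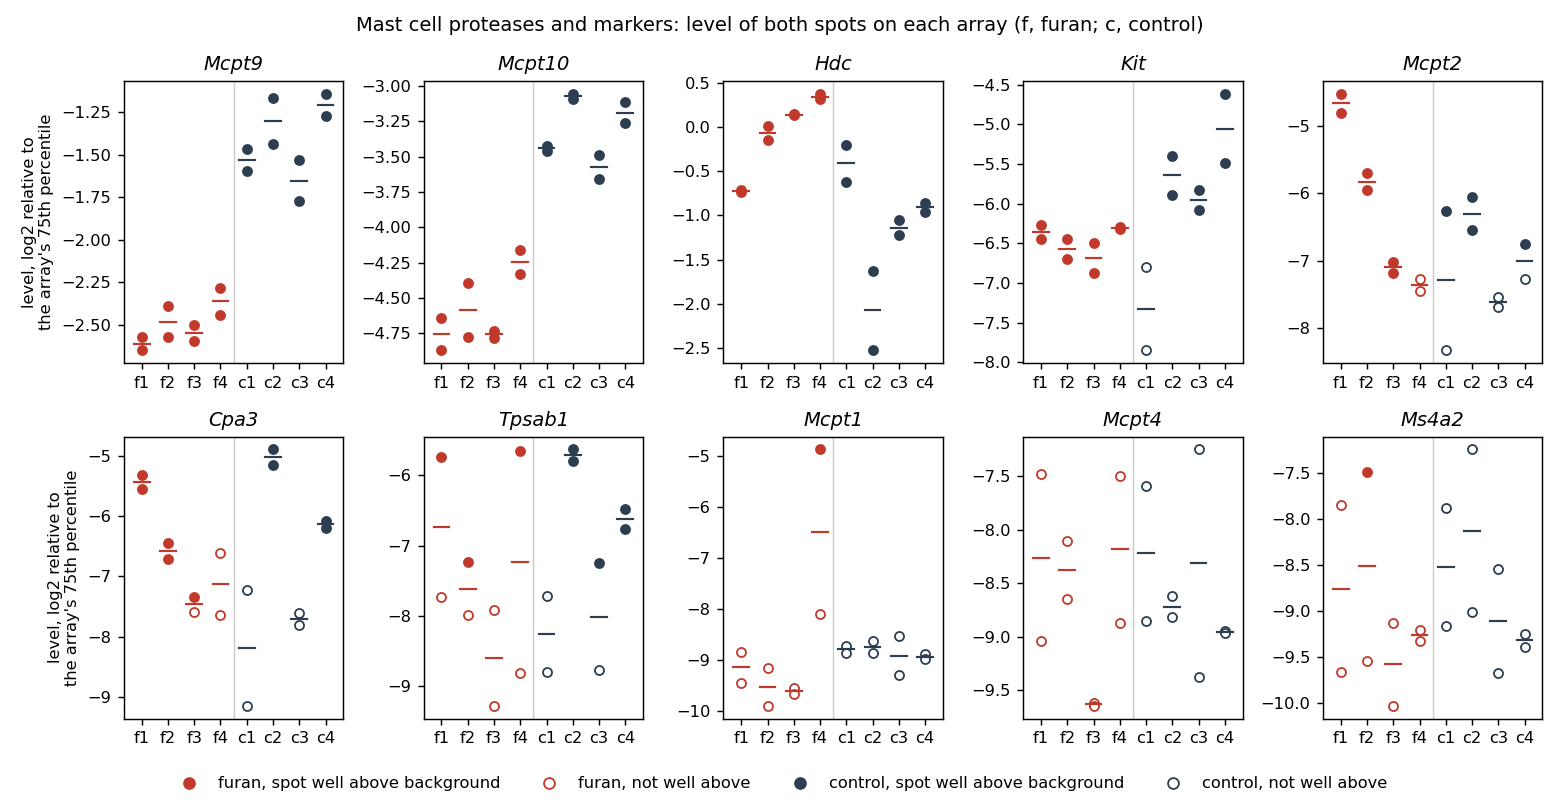
Level of both spots of each gene on every array (vertical axis, log2 relative to the array's 75th percentile, with a scale of its own in each panel), furan arrays f1 to f4 to the left of control arrays c1 to c4. Filled circles are spots well above background, open circles are spots that are not, and bars are the mean of both spots: the furan bars of Mcpt9 lie between -2.61 and -2.36 and its control bars between -1.65 and -1.21, and most spots of Mcpt1, Mcpt4 and Ms4a2 are open.

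Mcpt9, a granule serine protease, had levels of -2.61, -2.48, -2.55 and -2.36 on furan arrays 1 to 4, against -1.53, -1.30, -1.65 and -1.21 on control arrays 1 to 4. Every furan level lay below every control level. The mean was -2.50 ± 0.11 in furan livers and -1.42 ± 0.21 in control livers (SD, n = 4 each), and the log2 change was -1.08 ± 0.13 (SE), a 2.11-fold lower level, with a limma adjusted p of 0.00104. The 95% interval of the change ran from -1.37 to -0.79.

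Mcpt10, of the same branch of the family, had levels of -4.76, -4.58, -4.76 and -4.25 on the furan arrays, against -3.44, -3.07, -3.58 and -3.19 on the control arrays. The groups did not overlap here either. Groups that did not overlap were found for 36.7% of all features, and for 18% with furan lower. The mean was -4.59 ± 0.24 in furan livers and -3.32 ± 0.23 in control livers (SD, n = 4 each), and the log2 change was -1.27 ± 0.16 (SE), a 2.40-fold lower level, with a limma adjusted p of 0.00139. Of all features, 671, or 3.81%, were called and at least 2-fold lower, as Mcpt9 and Mcpt10 were. Within slide 1 the change was -1.13 for Mcpt9 and -1.41 for Mcpt10, and within slide 2 it was -1.02 and -1.12, with adjusted p between 0.0504 and 0.0592 in these fits of 2 arrays a group. Without any scaling between arrays, which moved the median change of all features to 0.56, the change of Mcpt9 was -0.48 (limma adjusted p = 0.0230) and that of Mcpt10 was -0.67 (limma adjusted p = 0.00798).

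The Mcpt9 spots read from 231 to 304 intensity units on the furan arrays and from 273 to 445 on the control arrays, so the unscaled spots overlapped. The Mcpt10 spots read from 50.8 to 76.0 units on the furan arrays and from 75.3 to 117 on the control arrays, which overlapped by a narrow margin. The scaled falls are thus relative to the rest of each array.

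A promoter is shown for Mcpt9, the member that fell and has one in the RefSeq table. It spans chr15:33827180-33827479 (GRCr8, plus strand), 250 bases before to 50 after the start of the gene. The capitals mark matches to CANNTG, the general E-box pattern of basic helix-loop-helix factors. Single factors bind narrower forms of it, and which of them bind here was not tested.
Mcpt9 promoter: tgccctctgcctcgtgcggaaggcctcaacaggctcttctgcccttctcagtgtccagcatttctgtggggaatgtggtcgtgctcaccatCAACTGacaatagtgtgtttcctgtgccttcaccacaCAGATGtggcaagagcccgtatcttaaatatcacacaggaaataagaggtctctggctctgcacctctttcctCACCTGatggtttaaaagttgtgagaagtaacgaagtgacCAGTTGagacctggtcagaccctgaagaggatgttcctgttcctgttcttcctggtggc
The window held 4 matches to CANNTG, counted on both strands, and 0 matches to GATAA, the core bound by GATA factors. Of 33469 rat promoters of this length in the table, 72.1% held CANNTG and 26.5% held GATAA. Promoters were available for 8 of the 10 genes. Those of Cpa3, Tpsab1, Mcpt4 and the gene behind the array's Mcpt2 held both motifs, and that of Hdc held neither.

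Mcpt8, a relative in the same branch that lies in the cluster, is no part of the chosen genes and was named after its values were seen. It had levels of -1.55, -1.43, -1.46 and -1.36 on the furan arrays, against -0.62, -0.25, -0.60 and -0.19 on the control arrays. It fell by 1.04 on the log2 scale with a limma adjusted p of 0.00130 over the features. In the window from 100 kb before Mcpt4 to 100 kb after Mcpt2 the array held 23 probes, of which 8 were tested with each probe as a feature of its own. Of these 8 probes 5 were lower and 0 higher after furan, against 16.9% called lower and 16.9% called higher of all 20268 probes tested. The 5 were the probes of Mcpt8, Mcpt9 and Mcpt10 and both probes of LOC100912724, an uncharacterised gene beyond Mcpt2. The LOC100912724 probes had log2 changes of -1.15 and -0.63. Mcpt9 and Mcpt10 belong to the chosen genes that set this window, and both LOC100912724 probes are of the same gene. The count of 5 is thus not independent of the calls above. The LOC100912724 probe with the change of -1.15 shared a run of 27 bases with the Mcpt8 probe, so the signals of both could mix. The longest run between the probes of Mcpt8, Mcpt9 and Mcpt10 was 6 bases. A short run between probes does not show which transcripts each probe binds, and mixing among these genes was not tested.

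The 3 other tested probes of the cluster were not called. Mcpt8l3, a predicted relative of Mcpt8 that lies just before it, had a log2 change of -0.28 (limma adjusted p = 0.449 with each probe as a feature). Mcpt1l2, a chymase-like gene between Mcpt8 and Mcpt10, had -0.41 (adjusted p = 0.275), and an unnamed transcript between Mcpt10 and Mcpt9 had -0.51 (adjusted p = 0.154). The groups overlapped for these 3 probes. Of the 15 probes that were not tested, 6 were well above background on 0 of the 8 arrays, the probes of Mcpt3, Mcpt4 and Mcpt4l1 among them.

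**Figure D2:**
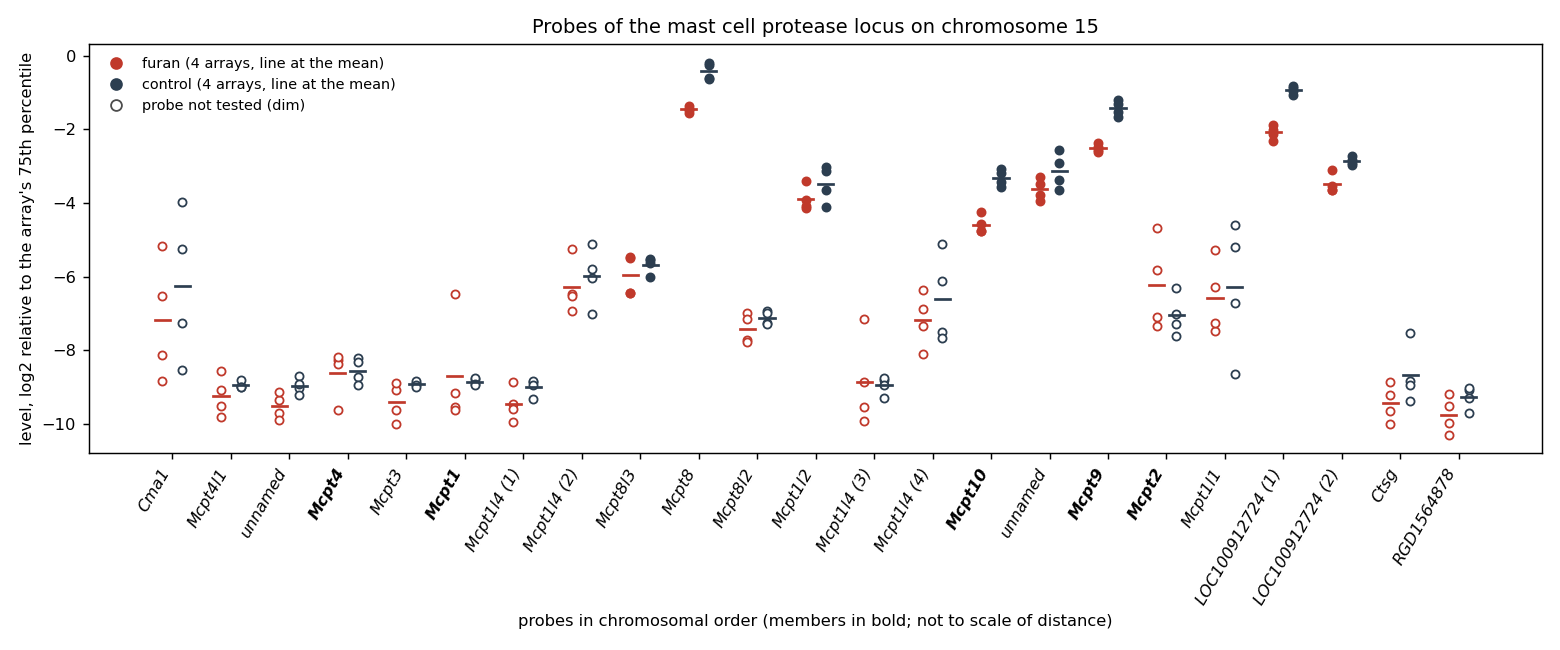
Levels (vertical axis, log2 relative to the array's 75th percentile) of the 23 probes of the protease cluster in chromosomal order along the horizontal axis, furan in red left of control in dark blue, with 4 arrays a group and a line at each mean. Furan points of Mcpt8, Mcpt10, Mcpt9 and both LOC100912724 probes lie below all their control points, and open circles are probes too dim to test.

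Hdc, which converts histidine to histamine and is not restricted to mast cells, had levels of -0.73, -0.07, 0.14 and 0.34 on the furan arrays, against -0.41, -2.07, -1.14 and -0.91 on the control arrays. Furan 1 lay below control 1, and the other 3 furan arrays lay above every control array. The mean was -0.08 ± 0.46 in furan livers and -1.13 ± 0.70 in control livers (SD, n = 4 each), and the log2 change of 1.05 ± 0.36 (SE, 95% interval 0.23 to 1.88) did not pass the test, with a limma adjusted p of 0.0533. The call changed with the setting: Hdc was called without furan replicate 1 (1.27, limma adjusted p = 0.0322), without control replicate 1 (1.29, 0.0284) and with normexp background correction (0.91, 0.0422), and it was not called when any of the other 6 arrays was left out. Within slide 1 its change was 0.84 and within slide 2 it was 1.26.

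Kit, the receptor for stem cell factor on mast cells, was near the limit of detection. Its levels were -6.36, -6.58, -6.69 and -6.31 on the furan arrays, against -7.33, -5.65, -5.95 and -5.05 on the control arrays. The furan arrays lay close together, 3 control arrays lay above all of them and control 1, whose Kit spots were not well above background, lay below them. The log2 change was -0.49 ± 0.42 (SE, 95% interval -1.45 to 0.48) with a limma adjusted p of 0.402. It was 0.02 within slide 1 and -0.99 within slide 2. Without control replicate 1 it was -0.93 with a limma adjusted p of 0.0198, so this library decided the call. With normexp background correction Kit was also called (-0.59, limma adjusted p = 0.00345), under a setting that called 33.9% of all features lower.

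Cpa3, Tpsab1 and Mcpt2, the stored carboxypeptidase, tryptase and chymase that make up much of a mast cell granule, were dim and uneven between animals. Cpa3 had levels of -5.43, -6.58, -7.47 and -7.13 on the furan arrays, against -8.19, -5.03, -7.71 and -6.14 on the control arrays, and was well above background on 3 furan and 2 control arrays. Tpsab1 had levels of -6.73, -7.61, -8.60 and -7.24 on the furan arrays, against -8.26, -5.71, -8.01 and -6.62 on the control arrays, and was well above background on 3 arrays of each group. Of its 8 spots in each group, 3 were well above background in the furan group and 5 in the control group. The groups overlapped for both genes, and both were highest on control 2. Mcpt2 had levels of -4.67, -5.83, -7.09 and -7.35 on the furan arrays, against -7.29, -6.30, -7.61 and -7.01 on the control arrays. It was highest on furan 1 and furan 2, and its detection was again 3 arrays of each group.

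With the filter on dim probes removed, the log2 change was 0.82 for Mcpt2 (95% interval -0.58 to 2.21), 0.11 for Cpa3 (-1.63 to 1.86) and -0.39 for Tpsab1 (-1.87 to 1.08), and 0 of these 3 were called by limma. At an unadjusted p below 0.05 the same fit also called 0 of the 6 dim genes. These intervals hold changes of more than 2-fold in either direction for Cpa3 and Tpsab1, so the arrays leave the direction of these granule genes undetermined. Slide 1 gave 1.55 for Mcpt2 and slide 2 gave 0.08. With normexp background correction and no filter, 8 of the 10 genes, all but Mcpt2 and Hdc, were called lower, in a fit that called 55.1% of all features lower, and Mcpt2 had -0.22.

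The arrays with high Cpa3 and Tpsab1 also had high Cma1, a mast cell chymase. Cma1 had levels of -5.17, -6.52, -8.14 and -8.85 on the furan arrays, against -8.54, -3.98, -7.27 and -5.26 on the control arrays, and was too dim to test. In Cpa3, Tpsab1 and Cma1 alike, the 3 highest arrays were control 2, control 4 and furan 1. Furan 1 and control 2 also had the highest summed signal of the 9 fibroblast and stellate cell markers. The sum was 25.3 times the array's 75th percentile on furan 1 and 6.17 to 13.01 on the other furan arrays. It was 13.5 on control 2 and 4.49 to 9.87 on the other control arrays. By the median level of these markers furan 1 was again the highest, at 0.31, but control 2 at -0.66 lay below control 3 at -0.41. The bile duct markers summed to 8.92 on furan 1 and 1.25 to 3.33 on the other furan arrays, and to 5.25 on control 2 and 0.63 to 1.00 on the other control arrays. Control 4 did not stand high in these lists, with sums of 6.47 for the fibroblast and stellate cell markers and 0.74 for the bile duct markers. The part of these tissue markers in the levels of the mast cell granule genes was not tested. Mcpt9 and Mcpt10 were at -2.61 and -4.76 on furan 1, in the low part of the furan values, and at -1.30 and -3.07 on control 2, where Mcpt10 was the highest and Mcpt9 the second highest of the 8 arrays. Without furan replicate 1 and control replicate 2 both were still called lower after furan, with limma adjusted p of 0.00897 and 0.00973. Furan 2, also high in bile duct markers, stayed in this fit.

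**Figure D3:**
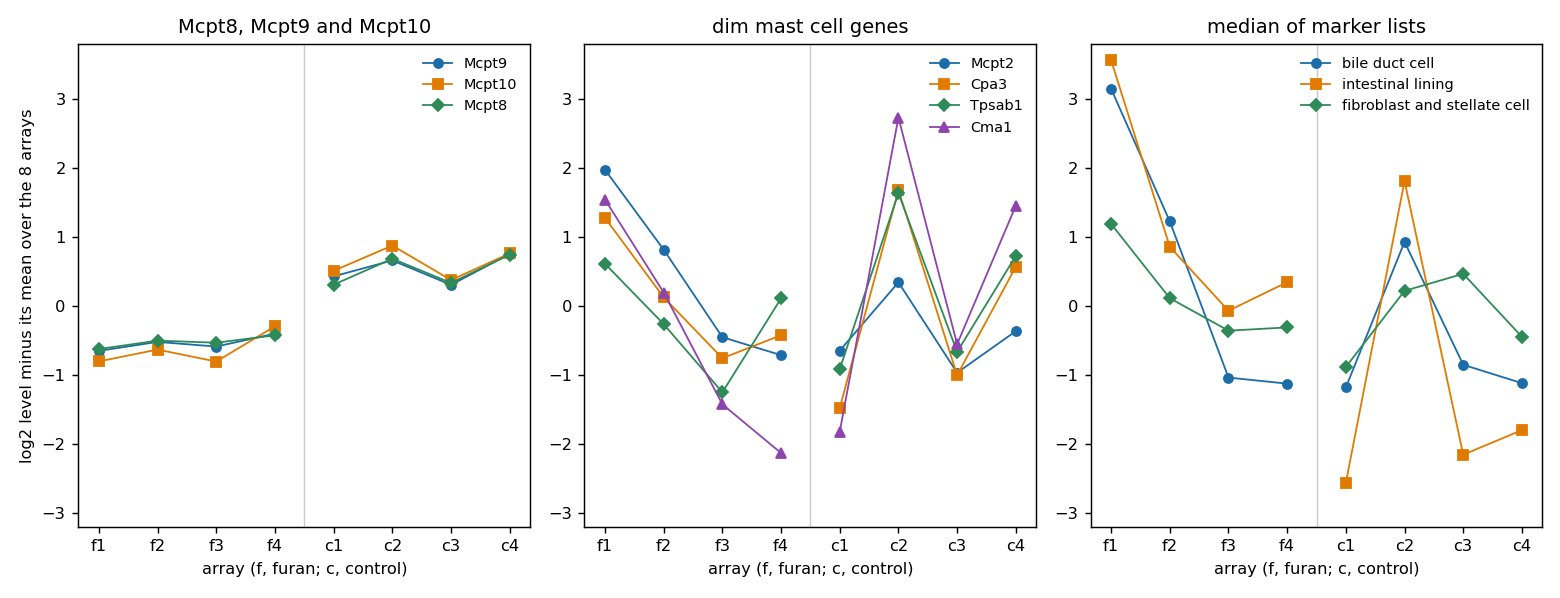
Log2 level minus its mean over the 8 arrays (vertical axis) by array, furan arrays f1 to f4 left of control arrays c1 to c4, for Mcpt8, Mcpt9 and Mcpt10 (left panel), for dim mast cell genes (middle panel) and for the median of 3 marker lists (right panel). The lines of the left panel separate by group. In the middle panel furan 1, control 2 and control 4 stand high in Cpa3, Tpsab1 and Cma1. In the bile duct and intestinal lists furan 1 and control 2 stand high, and control 4 does not. Furan 2 lies above control 2 in the bile duct list, and control 3 lies above control 2 in the fibroblast and stellate cell list.

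Mcpt1, Mcpt4 and Ms4a2 were at or near background in both groups. Mcpt4, a chymase, was well above background on 0 of 8 arrays, with levels from -9.63 to -8.18 in furan livers and from -8.95 to -8.22 in control livers. Ms4a2, the beta chain of the high-affinity IgE receptor and a defining marker of mast cells and basophils, was well above background on furan 2 alone, by 1 of its 2 spots, with levels from -9.58 to -8.51 in furan livers and from -9.32 to -8.13 in control livers. Mcpt1 was well above background on furan 4 alone, where its 2 spots read 4.59 and 43.1 intensity units, so that value rests on 1 spot. On the other arrays Mcpt1 ranged from -9.62 to -9.15 in furan livers and from -8.94 to -8.75 in control livers. The lowest level that counted as well above background lay between -9.09 and -8.12 on the furan arrays and between -8.47 and -7.94 on the control arrays. A difference in these genes was not detectable at this signal.

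The markers of mast cells were unevenly detected. Kit was well above background on 7 of the 8 arrays, Tpsab1 and Mcpt2 on 6, Cpa3 on 5 and Ms4a2 on 1. Fcer1a, the IgE-binding chain of the receptor, was well above background on 0 of 8 arrays, with levels from -9.48 to -7.91 in furan livers and from -8.84 to -7.13 in control livers. Which cells gave the Mcpt9 and Mcpt10 signals was not tested. Between 6 and 8 of the 10 chosen genes were well above background on a furan array and between 4 and 7 on a control array. Of all non-control spots, 73.2% to 78.5% were well above background on the furan arrays and 70.9% to 74.8% on the control arrays. Detection thus leaned to the furan arrays over the whole array too. Their summed signal was 0.90 to 1.56 times the array's 75th percentile on the furan arrays and 0.85 to 1.22 on the control arrays. Hdc, which is not restricted to mast cells, had the highest level of the 10 genes on every array but control 2, where Mcpt9 was higher. The sum is thus not a measure of the mast cell proteases.

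The other genes of the mast cell granule were mostly dim or did not pass the test. Of 19 listed, 18 had a probe and 8 were tested, of which 3 fell (Mcpt8, Ndst2 and Vamp8) and 0 rose, with 1 higher at an unadjusted p below 0.05. Ndst2, which sulphates heparin in mast cells and heparan sulphate elsewhere, fell by 0.74 on the log2 scale (limma adjusted p = 0.00111). Vamp8, a vesicle fusion protein of many secretory cells, fell by 0.33 (limma adjusted p = 0.0372). Its call held in 10 of 23 alternatives, was kept only without furan replicate 4 when single arrays were left out, and without scaling between arrays its change was 0.26. Ndst2 was called in 20 of 23, with -0.14 (limma adjusted p = 0.362) without scaling. The median change over the 8 was -0.23. Over all features 16.9% were called lower and 17.2% higher, and the counts of this list and of those below stand beside these shares.

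Of the 12 genes of the IgE receptor and its signalling, 11 were tested and 0 were called by limma, with 0 higher and 1 lower at an unadjusted p below 0.05. Fcer1g, the signalling chain that the receptor shares with other Fc receptors, had a log2 change of 0.12 ± 0.20 (SE, adjusted p = 0.666). The median over the 11 was -0.06, close to that of all features.

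Of 12 genes that make or sense histamine, prostaglandins and leukotrienes, 6 were tested. Of these 3 fell, while 0 rose by limma, with 0 higher at an unadjusted p below 0.05. The shares over all features were 16.9% lower and 17.2% higher. Ltc4s, which forms the cysteinyl leukotriene LTC4 in mast cells, eosinophils and macrophages, had levels of -3.85, -4.03, -4.14 and -4.16 on the furan arrays, against -1.20, -2.67, -2.81 and -1.85 on the control arrays. Every furan level lay below every control level, and its log2 change was -1.91 ± 0.33 (SE, limma adjusted p = 0.00413). Ptgs1, the constitutive cyclooxygenase, fell by 0.50 (limma adjusted p = 0.0166), and Hrh4, the histamine receptor of blood cells, fell by 0.54 (limma adjusted p = 0.0305). Ltc4s was called in 22 of 23 alternatives, Ptgs1 in 18 and Hrh4 in 12, and without scaling between arrays the changes were 0.10 for Ptgs1 and 0.05 for Hrh4. The call of Hrh4 was lost without furan replicate 2, 3 or 4 and without control replicate 2 or 4, with limma adjusted p from 0.0522 to 0.0781.

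Of 19 growth, recruitment and transcription factors of mast cells, 10 were tested, of which 1 rose and 2 fell. Il3ra, the receptor chain for the mast cell and basophil growth factor IL-3, rose by 1.00 ± 0.15 on the log2 scale (SE, limma adjusted p = 0.00225). Il33, an alarmin that acts on mast cells, had levels of 0.01, -0.60, 0.29 and -0.17 on the furan arrays, against 0.65, 0.55, 0.85 and 0.89 on the control arrays, and fell by 0.85 on the log2 scale (limma adjusted p = 0.0105). Il13, a cytokine of mast cells and other type 2 immune cells, fell by 1.28 (limma adjusted p = 0.0483). Il13 was called in 13 of 23 alternatives and changed by -0.71 with normexp. Its call was lost without furan replicate 2 or 3 and without control replicate 1, 3 or 4, with limma adjusted p from 0.0549 to 0.110. Il33 was called in 20 of 23, with -0.26 (limma adjusted p = 0.318) without scaling. Kitlg, the ligand of Kit, had a change of -0.42 ± 0.47 (adjusted p = 0.529), Gata2 of -0.38 ± 0.25 (adjusted p = 0.276) and Mitf of -0.11 ± 0.09 (adjusted p = 0.376), each with its SE, and these 3 were not called.

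Markers of other cells that carry granule proteases were set beside Mcpt9 and Mcpt10. Of the 6 basophil markers 4 were tested and 1 fell, which was Mcpt8 itself, and Prss34, a basophil tryptase, had a change of 0.16 (limma adjusted p = 0.793). Of the 11 genes of natural killer and cytotoxic T cell granules 10 were tested and 1 fell, Gzmc, by 0.93 (limma adjusted p = 0.0305), with 3 lower at an unadjusted p below 0.05. The call of Gzmc held in 14 of 23 alternatives, with changes from -1.10 to -0.33, and was lost without furan replicate 3 and without control replicate 2, 3 or 4 (limma adjusted p from 0.0657 to 0.0740). Their summed signal was 0.70 to 0.85 times the 75th percentile on the furan arrays and 0.61 to 1.40 on the control arrays, with control 1 the lowest. Of the neutrophil markers 4 of 10 were tested, and S100a9 (-1.65, limma adjusted p = 0.0406) and Csf3r (-1.06, limma adjusted p = 0.0342) fell, while the summed signal was 0.23 to 0.42 on the furan arrays and 0.47 to 1.33 on the control arrays. Each of these calls held in 14 of 23 alternatives, and Csf3r changed by -0.66 with normexp and by -0.47 without scaling. The call of S100a9 was lost without furan replicate 2, 3 or 4 and without control replicate 1, 3 or 4 (limma adjusted p from 0.0585 to 0.110), and that of Csf3r without furan replicate 2 or 3 and without control replicate 1, 2 or 4 (0.0668 to 0.0786). Among the 2 eosinophil, 9 macrophage, 6 lymphocyte and 3 blood progenitor markers tested, 0 were called by limma and 0 had an unadjusted p below 0.05, and the eosinophil markers Epx, Prg3, Ear11, Ccr3 and Il5ra were well above background on 0 of 8 arrays. The part of these cells in the protease signals was not tested.

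Among the other tissue lists, 2 of 8 bile duct markers rose (Epcam by 1.79 and Sox9 by 0.48 on the log2 scale), 1 of 5 tested intestinal markers rose (Fabp2 by 2.50) and 0 of 8 tested fibroblast and stellate cell markers were called by limma, with 0 at an unadjusted p below 0.05. Sox9 was called in 14 of 23 alternatives. Its change was 0.17 (limma adjusted p = 0.215) with normexp, and its call was lost without control replicate 1 or 2 (limma adjusted p of 0.0538 and 0.0519). Of the 5 erythroid markers 0 were called, with 1 higher and 2 lower at an unadjusted p below 0.05. Of the 10 hepatocyte markers 1 rose and 7 fell, with a median change of -0.64.

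The genes whose level was most like the mean profile of the 4 tested members over the 8 arrays, by Pearson's r of centred levels, were Gpn2, Ucma, Mamdc4, Lime1 and Rbm48, with r from 0.95 to 0.97. With each group's mean taken out they were Spata1, Lime1, Akr1c3, Fkbp5 and Rfc4, again with r from 0.95 to 0.97. Since Hdc ran opposite to Mcpt9 and Mcpt10, that mean mixes unlike profiles. For the mean of Mcpt9 and Mcpt10 alone, a choice made after their values were seen, the most like gene over the 8 arrays was Mcpt8 with r = 0.99, followed by Sec22a, Npffr1, Ephb6 and Lrrc8a. With each group's mean taken out the 5 most like it were Nek11, Spata24, Sft2d3, Nr0b1 and Slc38a8, and Mcpt8 was not among them. These values describe 8 arrays that fall into 2 groups. Those with the group means left in share the group difference. All were picked as the highest among many tested features, so high r can come from the picking alone, and no r was tested.

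**Figure D4:**
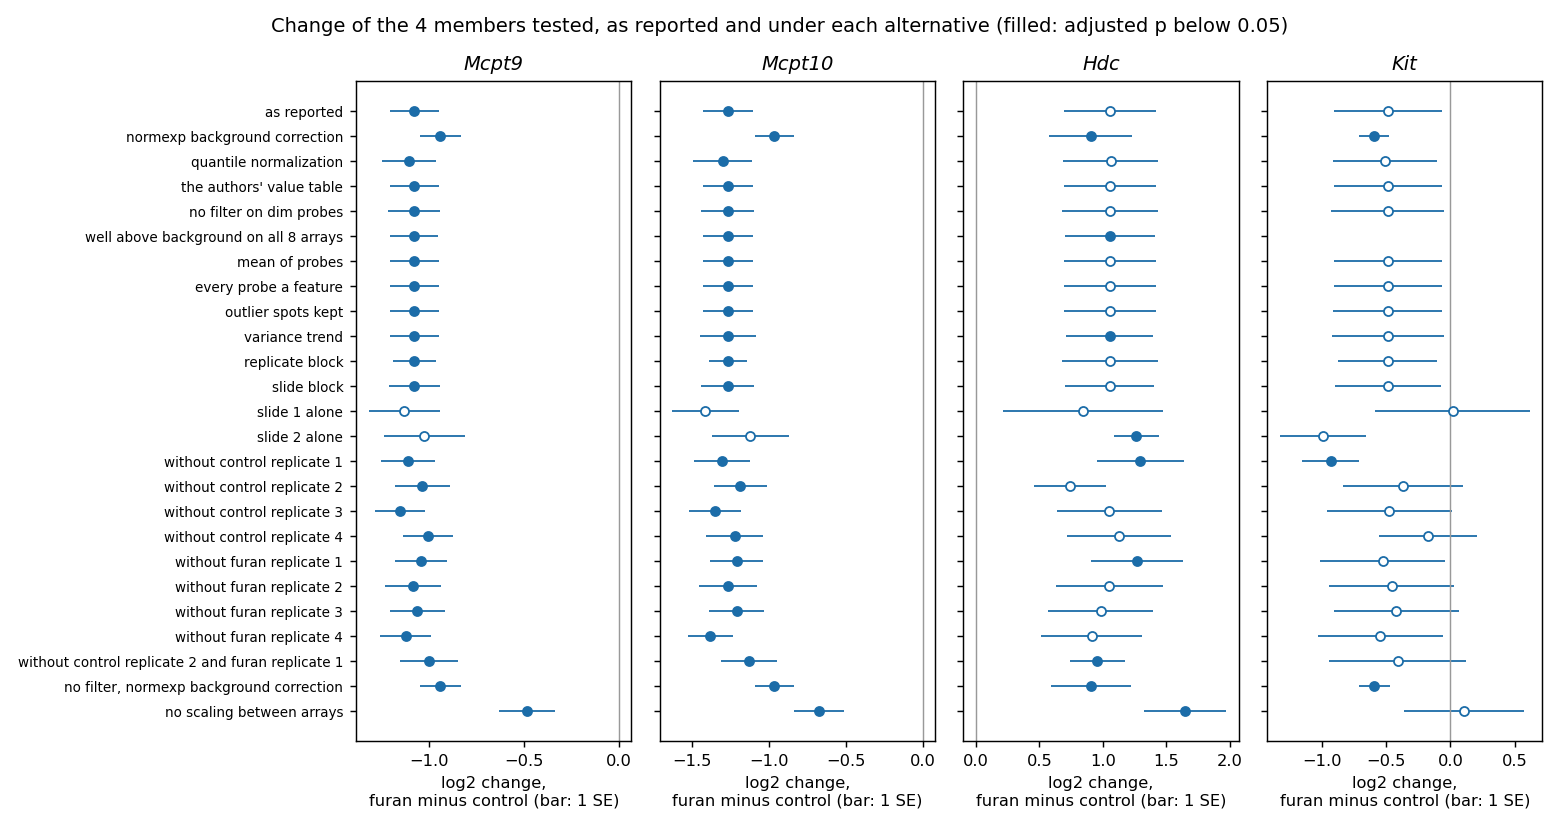
Log2 change, furan minus control (horizontal axis, bars 1 SE), of the 4 tested genes as reported and under each alternative setting (rows), filled where the adjusted p was below 0.05. Mcpt9 and Mcpt10 lie below 0 under every setting shown and are open only in the 2 single-slide fits, Hdc lies above 0 under every setting and is filled in some, and Kit crosses 0.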

How the data were processed

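Signals were measured on 8 rat arrays, 4 of furan and 4 of control livers, and every file was assigned to its sample by the labels. Per the submitters' processing notes and the file headers, the authors extracted the spots with Agilent Feature Extraction 10.7. Deposited values in the scanner files are background-subtracted processed signals in intensity units for 62976 spots, and no non-control spot was saturated. The deposited series table also holds intensity values, which were tested on the files and equalled the processed signal scaled to a 75th percentile of 1000.

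The log2 values were computed here from the deposited intensities. Of 58717 non-control spots, those marked non-uniform or outlying were left out, which touched 0 spots of the 10 genes. The spots of a probe were averaged, and 170 of 30367 probes with no usable spot on some array were left out. A probe was well above background on an array where at least a share of 0.5 of its spots was. Where a gene name had several tested probes the brightest was kept. Each feature was fitted with limma 3.58.1 under R 4.3.3 (lmFit, then eBayes with no variance trend), furan minus control, two-sided, and p-values were adjusted by Benjamini-Hochberg over the 17593 features. The fit was tested on simulated data in which 200 of 17593 features changed, fewer than were called in the real data. It recovered 55 of 100 changes of log2 size 1 and 85 of 100 of log2 size 2, with 10 false calls. A gene that was not called may thus still have changed by 2-fold. Of the 10 members, 0 were well above background on every array of one group and none of the other, so no fold bound is given.

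The members, the 16 gene lists and the rules were chosen with earlier results of these data known. Named were all members, Kitlg, Fcer1a, Fcer1g, Gata2, Mitf and Il33, up to 3 called genes of each list, and the 5 genes most like the tested members. Mcpt8, the other genes of the cluster, single markers at background and dim genes such as Cma1 were named beyond this after their values were seen. The listed genes Mcpt1l3 and Cd79a were not found among the array's names. Animals were counted from the labels, which name replicates and 4 rats a group. The number of arrays limits the precision. Sequences of promoters are those of RefSeq (GRCr8), matched by transcript for 8 genes.

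Alternatives were normexp background correction with an offset of 50, quantile normalization, the authors' table, the filter, the choice of probe, outlier spots, a variance trend, replicate and slide blocks, each slide alone and leaving out each array. Added after seeing the data were normexp with no filter, no scaling between arrays, and leaving out furan replicate 1 with control replicate 2.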

Additional observations from a re-analysis of the deposited data

Results flagged for a closer look

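In a search of 66 groups of 4 levels from 33 named genes, 3 groups held an array apart from the other 3 by Dixon's test, where chance alone marks about 1 in 20 groups. Mcpt1 was at -6.48 on furan 4, against -9.62 to -9.15 on the other furan arrays, and only 1 of its 2 spots there was well above background. Mcpt4 was at -9.63 on furan 3, against -8.38 to -8.18 on the other furan arrays, with neither spot well above background. Gata2, a transcription factor of mast cells and other blood cells, was at -5.62 on control 2, against -6.43 to -6.32 on the other control arrays.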

How the results depend on the processing

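Mcpt9 and Mcpt10 were lower after furan under all 24 alternatives and called in 22 of them. The exceptions were slide 1 alone and slide 2 alone, fits of 2 arrays a group, where 0 members were called lower. Leaving out each array in turn gave log2 changes from -1.15 to -1.01 for Mcpt9 and from -1.38 to -1.18 for Mcpt10, and from 2 to 3 members called lower. The count called higher was 0 as reported and ranged from 0 to 1 over these fits. It was 1, which was Hdc, with normexp, with the filter of all 8 arrays, with a variance trend, on slide 2 alone, without furan replicate 1 and control replicate 2 together, with normexp and no filter, and without scaling. Normexp with no filter called 8 members lower, in a fit that called 14335 of 25996 features, or 55.1%, lower and 17322 in all. No scaling called 9650 features, slide 1 alone 537 and slide 2 alone 1469, against 6004 as reported. Leaving out each array gave 4155 to 5932. The causes were not tested.

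Normexp called 31.8% of its calls higher, against 50.5% as reported, and moved the median change of all features to -0.18; without scaling 94.6% were higher. Relative to these medians the changes of Mcpt9 and Mcpt10 kept their direction. Normexp with no filter turned Mcpt2 to -0.22 and Cpa3 to -0.45, against 0.82 and 0.11 without normexp, so the sign of these dim genes depends on the background correction. The replicate block changed no call of a member, ended those of Vamp8, Ptgs1, Hrh4, Il13 and Sox9 (limma adjusted p from 0.0589 to 0.0970) and called 4529 features; same-numbered arrays deviated together with r of -0.30, 0.11, 0.28 and 0.04, and 2 of 4 correlated best with their own number, so the numbers were not taken as pairs. The other floor planned for fold bounds gave no value because no member met their condition. Signal near background limits Mcpt1, Mcpt4 and Ms4a2, which these arrays cannot compare.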
